A study of Homo sapiens with 7 samples.

Results

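The nuclear-encoded subunits of the respiratory chain and the ATP synthase were followed in HCT116 cells given miR-148a-3p or a control miRNA. Members were taken by gene symbol: the NDUFA, NDUFB, NDUFC, NDUFS and NDUFV subunits of complex I, the SDH subunits of complex II, the UQCR genes and CYC1 of complex III, the COX subunits of complex IV and the ATP5 genes of complex V. Of 15659 symbols listed in the 6 libraries, 95 matched. Of these, 6 pseudogenes, 2 readthrough transcripts, 2 antisense genes and 2 divergent transcripts were set aside, which left 83 members: 36 of complex I, 4 of complex II, 10 of complex III, 14 of complex IV and 19 of complex V. NDUFA4, now named COXFA4 in RefSeq, and its relative NDUFA4L2 were placed with complex IV despite their symbols, and the ATP synthase inhibitor ATP5IF1 was kept with complex V.

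HCT116 is a human colorectal carcinoma line. All 6 libraries came from HCT116 cells with a DROSHA knockout, so controls carried the knockout too. DROSHA, a ribonuclease of the nucleus, releases microRNA hairpins from their primary transcripts, so knockout cells make few canonical microRNAs. The control group (3 libraries) was transfected with a control miRNA and the other group (3 libraries) with miR-148a-3p, and RNA was taken 48 h later. The labels do not say how many knockout clones were used, which part of DROSHA was lost, or whether replicates were separate cultures, and the p-values here then speak of library-to-library spread alone, part of which may be technical. Libraries were primed with oligo-dT and read near the 3' end of each transcript, so counts did not scale with transcript length.

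The respiratory chain sits in the inner mitochondrial membrane. Complex I takes electrons from NADH and complex II takes them from succinate. Both pass them to coenzyme Q, complex III passes them on to cytochrome c, and complex IV hands them to oxygen. Complexes I, III and IV pump protons, and complex V, the ATP synthase, uses the proton gradient to make ATP. Most subunits are encoded in the nucleus, while the mitochondrial genome encodes a few catalytic ones. None of 13 mitochondrially encoded subunit genes searched for was listed, so their levels were not analysed here. Many colorectal carcinoma lines also make much of their ATP by glycolysis.

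The agent delivered to the cells is shown first, since its seed (bases 2 to 8, in capitals) sets which transcripts a microRNA can pair with. The mature sequence is that of RefSeq, on GRCh38.p14 at chr7:25949922-25949943, minus strand.
hsa-miR-148a-3p: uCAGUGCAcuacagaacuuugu
Matches to this seed in the members' transcripts were not analysed here.

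The libraries held 630142 to 1564125 counts over 12448 to 13849 genes, and the members took 1.38% to 1.61% of all counts. Control replicate 1 had the lowest share, and it lay at one end of the first principal component of all tested genes (-31.4, with miR-148a-3p replicate 3 at 34.2 on the other end and 29.8% of the variance). Of 12 colon epithelium markers, 9 were listed, with summed counts of 1492 to 2093 in the controls and 1031 to 2767 with miR-148a-3p, most of them from the keratin KRT18, while KRT20, CDX1 and GPA33 were at 0. Of the 6 that could be tested, 2 had a higher and 4 a lower fitted value (median log2 ratio of miR-148a-3p over control -0.29). The 6 fitted values ran from -0.68 to 0.26. Among the 4 lower ones, KRT18 was at -0.15 (SE 0.16), KRT8 at -0.55 (SE 0.22, edgeR adjusted p = 0.626) and CDX2 at -0.68 (SE 0.36). The part of such marker differences in the subunits' values was not tested. Of 12 blood cell markers, 3 were listed, with 0 to 3 counts in the controls and 0 to 17 with miR-148a-3p, and PTPRC, CD3E, CD14 and SPI1 were at 0. Of 11 fibroblast and endothelium markers, 5 were listed, with 34 to 85 counts in the controls and 28 to 83 with miR-148a-3p, nearly all from COL1A1, and COL1A2, DCN, CDH5 and KDR were at 0. In such bulk RNA, fewer cells of a type and less RNA per cell cannot be told apart.

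The subunits were abundant transcripts. Levels are CPM, counts scaled to the same library total, after TMM normalisation. Of the 83 members, 78 had counts in all 6 libraries, and 78 passed the filter on low counts and were tested. Of these, 72 lay above the median of the 8921 genes tested, 24 in the top 10% and 12 in the top 5%. UQCRB, a small subunit near the quinone site of complex III, had the highest mean over the 6 libraries, 963 CPM. COX4I1, the ubiquitous form of the largest nuclear-encoded subunit of complex IV, followed at 873 CPM. The c-ring gene ATP5MC2 was at 694 CPM and ATP5MG, a small membrane subunit of the ATP synthase, at 664 CPM. ATP5F1D, the delta subunit of the F1 head, was the lowest tested member, at 25.5 CPM. With 3' end counting, these levels compare transcript ends between genes and not coverage along them.

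**Figure D1:**
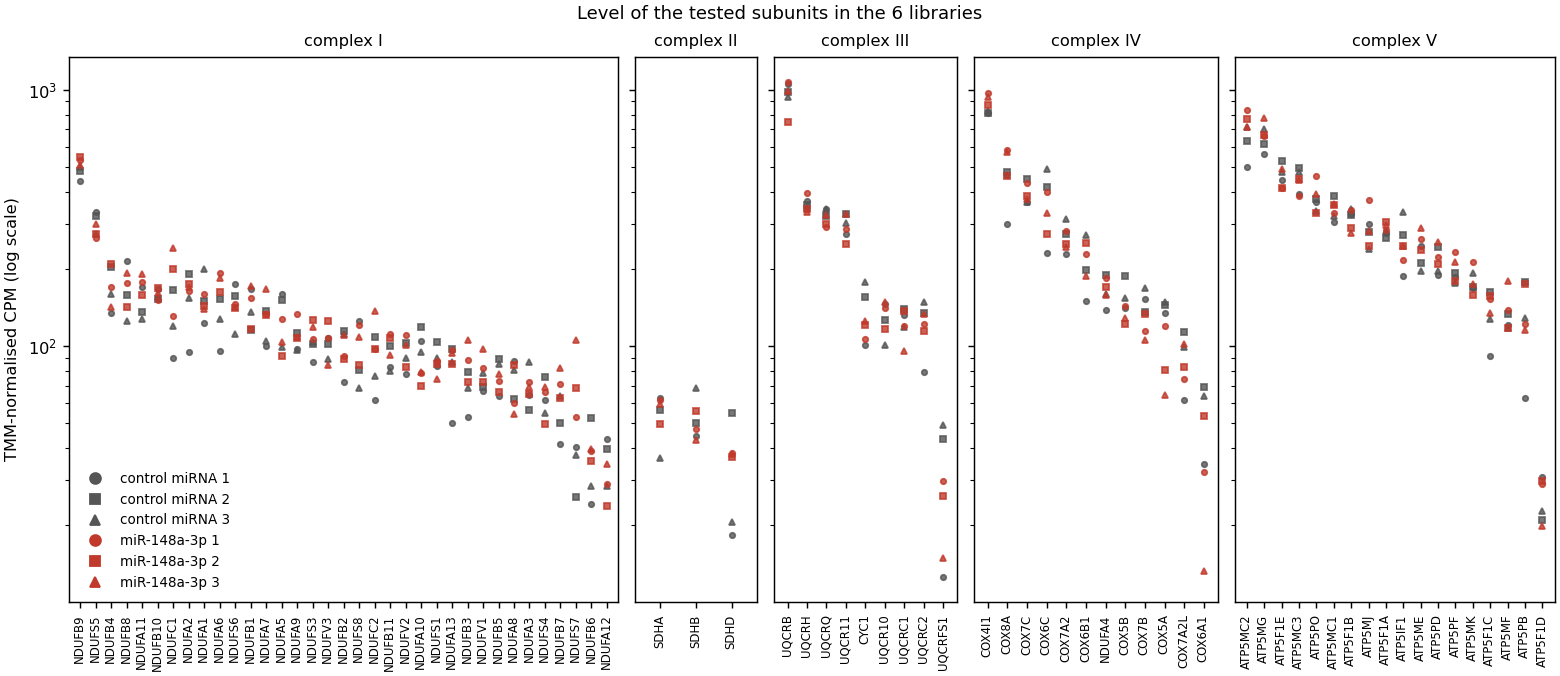
Level of the tested subunits (1 member is not drawn; TMM-normalised CPM, log axis) in the 3 control and 3 miR-148a-3p libraries, with 1 point per library and genes ordered by mean level within each complex. Levels ran from 25.5 CPM on average for ATP5F1D to 963 CPM for UQCRB, and points of both groups were mixed for most genes.

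Levels were uneven within and between complexes. Complex V took 34.2% of the members' summed CPM, complex I 28.3%, complex IV 20.8%, complex III 15.7% and complex II 0.916%. The members that stayed untested were SDHC (23 reads in all), COX6B2, NDUFA4L2, UQCRHL and ATP5MGL. The 5 genes that matched the rule in RefSeq but were listed in no library were COX4I2, COX6A2, COX7A1, COX7B2 and COX8C. All 5 are isoforms of complex IV subunits, and COX6A2 and COX7A1 are the heart and muscle forms.

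In 4 isoform families with more than 1 listed member, 1 form carried nearly all counts. COX6B1 was measured at 215 CPM over the 6 libraries and the testis form COX6B2 at 1.70 CPM. NDUFA4 was at 166 CPM and NDUFA4L2, an isoform known to be induced in hypoxia, at 0.274 CPM, from a single read in miR-148a-3p replicate 3. UQCRH, the hinge subunit of complex III, was at 357 CPM and its copy UQCRHL at 1.44 CPM. ATP5MG was at 664 CPM and ATP5MGL at 0.852 CPM. These low values came from 9 or fewer reads per gene, and reads of near-identical copies cannot be told apart. COX7A2, the ubiquitous form, was at 265 CPM beside 88.9 CPM for its relative COX7A2L, which takes part in joining complexes III and IV into supercomplexes. The c ring is built from many copies of 1 protein, which ATP5MC1, ATP5MC2 and ATP5MC3 encode with the same mature part and different import signals. They were at 343, 694 and 440 CPM.

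The starts of the members' genes were read next, since transcription of many respiratory chain genes is known to use NRF1, GABPA (an ETS factor) and YY1. Of the 83 members, 68 had a promoter in RefSeq (GRCh38.p14, 250 bases before to 50 after each listed start). Letters were searched on both strands. The NRF1 letters GCGCATGCG were in the promoters of 11 of the 68 (16.2%), beside 4.70% of the 7301 tested genes that had a promoter and 2.34% of all 27305 genes with one. The ETS letters CCGGAAG were in 21 (30.9%), beside 24.8% and 12.2%. The YY1 letters AAGATGGC were in 12 (17.6%), beside 7.67% and 3.52%. The TATA letters TATAAA were in 6 (8.82%), beside 7.72% and 14.0%. The median G and C content was 59.8% in members' promoters and 65.3% in those of the tested genes. The part of base content in the shares with each motif was not tested. The NRF1 letters match on both strands where they are followed by C, and the YY1 letters hold ATG, so they can also be a translation start.

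The YY1 letters lay mostly in one place. In 10 of 68 members (14.7%) they stood in the sense direction after the start, beginning at positions 11 to 39 counted from the first transcribed base, beside 4.48% of tested genes with a promoter. These 10 were ATP5PO, NDUFA3, NDUFA6, NDUFA7, NDUFA9, NDUFB8, NDUFS4, NDUFS7, SDHB and UQCRC1. The 11 members with the NRF1 letters were ATP5F1C, ATP5MC2, ATP5ME, ATP5PF, COX6A1, NDUFA5, NDUFA8, NDUFB4, NDUFS6, NDUFS7 and SDHD, so complexes I, II, IV and V were represented. None of the 7 complex III promoters searched held them. CYC1, UQCRB and UQCRHL of complex III had no promoter among those used and were not searched, so nothing is said of them. A match of letters is a description and not a site of binding.

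The stretches below show 5 members, 1 or 2 each from complexes I, II, IV and V, in which the NRF1 letters stand with another of the motifs. They are from RefSeq on GRCh38.p14, in the direction of the gene, with the motif letters in capitals. NDUFS7 is at chr19:1383821-1383931 (plus strand), SDHD at chr11:112086751-112086814 (plus), COX6A1 at chr12:120437882-120438115 (plus), ATP5ME at chr4:674255-674366 (minus) and ATP5PF at chr21:25735066-25735265 (minus).
NDUFS7: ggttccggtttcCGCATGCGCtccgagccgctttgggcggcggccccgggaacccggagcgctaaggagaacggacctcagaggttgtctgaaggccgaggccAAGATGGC
SDHD: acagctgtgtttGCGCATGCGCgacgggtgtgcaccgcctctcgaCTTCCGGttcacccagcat
COX6A1: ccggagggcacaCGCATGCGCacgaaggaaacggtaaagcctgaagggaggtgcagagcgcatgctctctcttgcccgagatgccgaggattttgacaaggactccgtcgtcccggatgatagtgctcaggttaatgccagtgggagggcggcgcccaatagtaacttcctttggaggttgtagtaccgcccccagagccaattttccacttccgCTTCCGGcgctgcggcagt
ATP5ME: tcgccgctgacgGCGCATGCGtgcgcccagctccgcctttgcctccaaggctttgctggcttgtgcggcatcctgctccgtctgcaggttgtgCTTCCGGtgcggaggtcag
ATP5PF: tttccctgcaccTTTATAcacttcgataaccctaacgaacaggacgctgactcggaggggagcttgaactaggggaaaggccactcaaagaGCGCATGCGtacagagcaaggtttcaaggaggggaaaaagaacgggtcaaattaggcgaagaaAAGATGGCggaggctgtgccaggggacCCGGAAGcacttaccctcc
The NRF1 letters begin 74 bases before the start of NDUFS7, 110 before that of SDHD, 219 before that of COX6A1, 78 before that of ATP5ME and 120 before the listed start used for ATP5PF. The span of ATP5PF overlaps that of GABPA in RefSeq.

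The fitted changes between the groups are given for members with and without the letters as a description. The median log2 fold change was 0.17 over the 11 members with the NRF1 letters (7 with a higher fitted value) and 0.083 over the 55 tested members with a promoter and without them (37 higher). It was 0.12 over 21 members with the ETS letters (14 higher) and 0.071 over 45 without (30 higher), and 0.15 over 12 members with the YY1 letters (9 higher) and 0.077 over 54 without (35 higher). It was 0.19 over the 6 members with the TATA letters (5 higher) and 0.077 over 60 without (39 higher).

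The question of the comparison was whether mRNA levels of these subunits differed with miR-148a-3p. No member passed the threshold of an edgeR adjusted p below 0.05: 0 of 78 tested members, beside 1 gene of 8921 tested (0.0112%), which was no member. The 78 fitted log2 fold changes (log2 ratios of miR-148a-3p over control) ran from -0.71 (COX6A1) to 1.08 (NDUFS7), with a median of 0.077 beside -0.0039 over all genes. Their standard errors (SE) ran from 0.16 to 0.41. By unadjusted p below 0.05, edgeR gave 5 of 78 members (6.41%), beside a background of 6.79% of all genes tested, DESeq2 gave 4 and limma-voom 7. Of the 5, 3 were higher and 2 lower, beside 3.4% of all genes in each direction. The members' count was near the background and is no result about them.

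More members had a higher than a lower fitted value, 49 against 29 of 78 (62.8% higher, beside 49.5% of all genes higher and 50.5% lower). The 2 groups did not overlap for 8 members that were higher (10.3%, beside 6.22% of all genes) and for 3 that were lower (3.85%, beside 6.59%). Among the 8 were NDUFS7, NDUFA6, NDUFS3 and NDUFB9 of complex I, COX4I1 of complex IV, and ATP5MC2 and ATP5F1A of complex V. The 3 were NDUFA10, COX7B and COX5A. Some gaps were narrow in both directions. The nearest control and miR-148a-3p libraries were at 282.1 and 282.8 CPM for ATP5F1A, and at 715.5 and 716.2 CPM for ATP5MC2. For COX7B they were at 135.3 and 133.7 CPM. Control replicate 1 was the lowest of the 6 libraries for 35 of 78 members (44.9%), beside 21.6% of all genes. Control replicate 2 was the highest for 21 of 78 (26.9%), beside 15.7% of all genes. Without control replicate 1, 40 of 78 members had a higher fitted value and the median log2 fold change was 0.0016. This fit is given because that library was low for many members, and leaving out such a control lowers their fitted ratios. A smaller count follows from that choice, and the part of control replicate 1 in it was not tested.

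**Figure D2:**
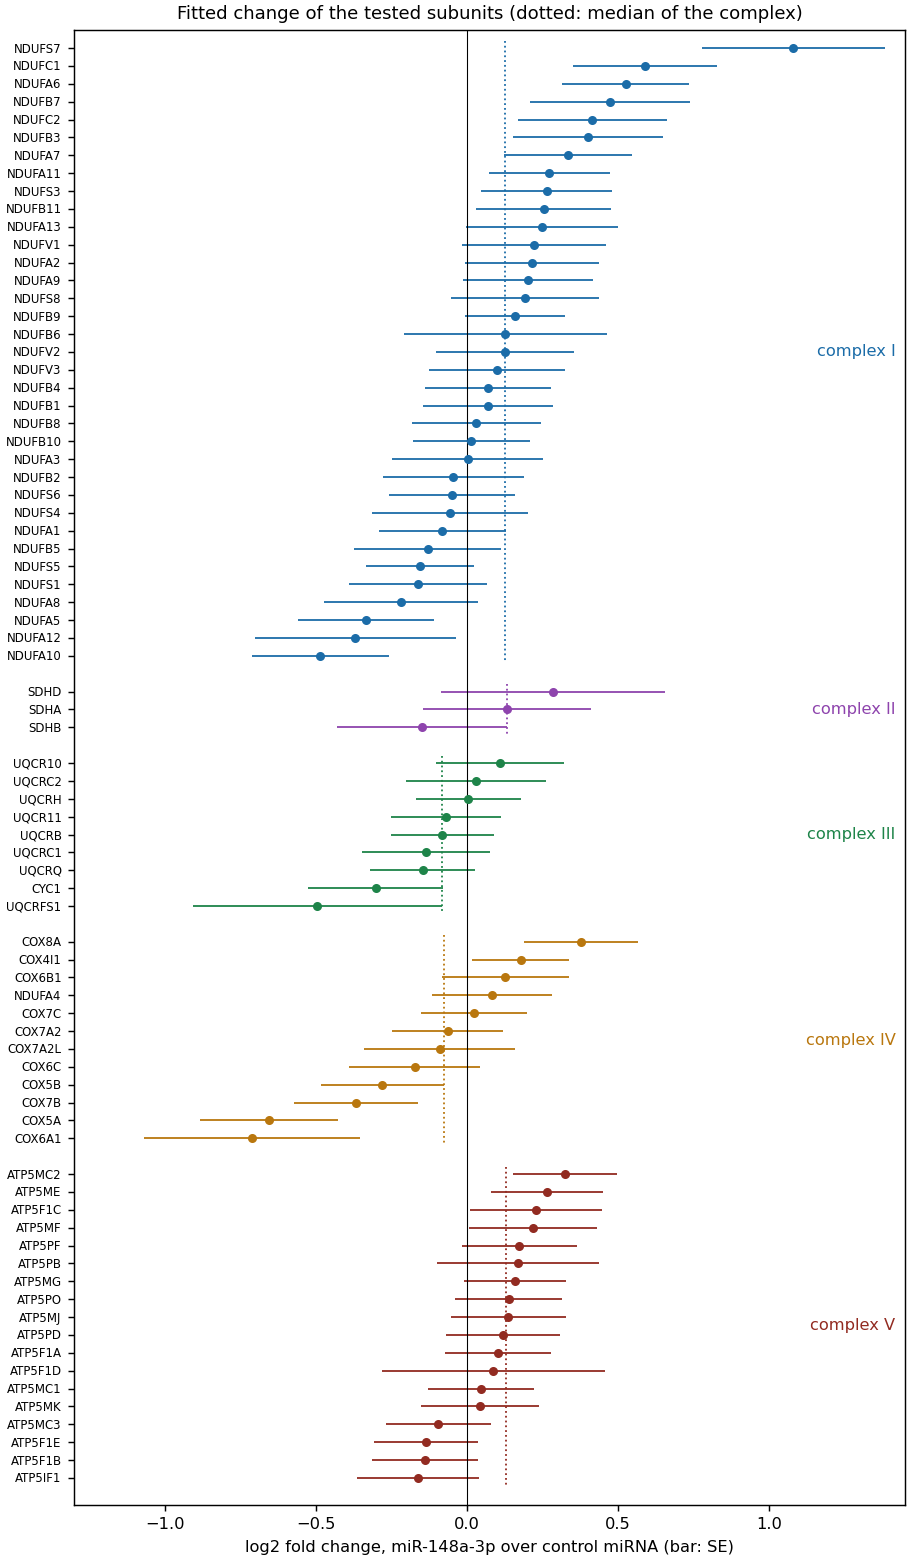
Fitted log2 fold change (miR-148a-3p over control miRNA) of the tested subunits (1 member is not drawn) with its standard error, grouped by complex, with the median of each complex as a dotted line. Values ran from -0.71 for COX6A1 to 1.08 for NDUFS7, and more lay above 0 than below.

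Summed over all 83 members, the level was 14220, 16235 and 15731 CPM in the controls and 16574, 15271 and 16337 CPM with miR-148a-3p. The groups overlapped, at 15395 ± 1048 and 16060 ± 694 CPM (SD, n = 3). By complex, the medians of the fitted log2 fold changes were 0.13 for complex I, 0.13 for complex II, -0.080 for complex III, -0.076 for complex IV and 0.13 for complex V. A higher fitted value was found for 25 of 36, 2 of 3, 3 of 9, 5 of 12 and 14 of 18 tested members. Whether complexes differed from each other in their change was not tested. Without control replicate 1, the medians were 0.10, 0.00031, -0.13, -0.25 and 0.064.

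**Figure D3:**
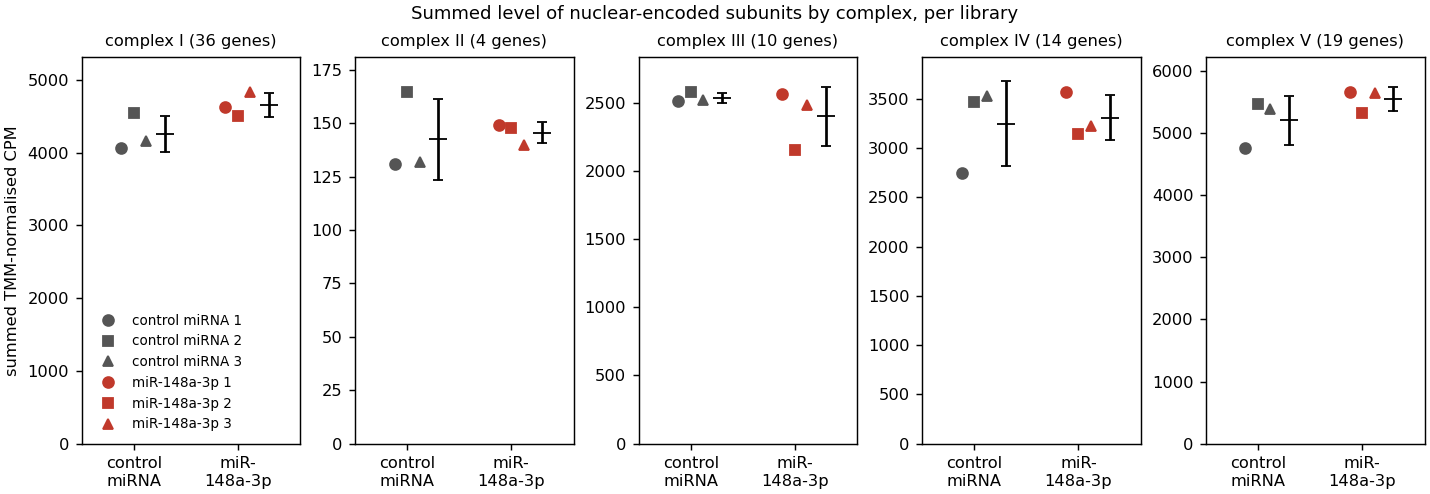
Summed TMM-normalised CPM of all members of each complex in each library (points), with the mean and SD of 3 libraries per group (bars), on axes that start at 0. The groups overlapped in all 5 complexes, and control replicate 1 was the lowest library for complexes I, II, IV and V.

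In complex I, the summed level was 4068, 4542 and 4162 CPM in the controls and 4626, 4501 and 4830 CPM with miR-148a-3p. The miR-148a-3p libraries were the higher ones except that replicate 2 lay below control replicate 2. The 7 core subunits, which carry the flavin and the iron-sulfur clusters, summed to 589, 614 and 644 CPM in the controls and 736, 705 and 782 CPM with miR-148a-3p. These sums did not overlap, and 6 of 7 core subunits had a higher fitted value, with a median of 0.22. Without NDUFS7 the other 6 summed to 581 ± 29.3 and 665 ± 25.1 CPM (SD, n = 3), also without overlap. Of the 11 groups of members by role, 2 had sums that did not overlap, the core of complex I and the c ring, both higher. Of single genes, 6.22% did not overlap and were higher, and 6.59% did not overlap and were lower. A sum over several genes is another measure than a single gene, so these shares are no like background. With so few role groups, nothing was read from this count. The 29 accessory subunits summed to 3642 ± 249 and 3912 ± 128 CPM, and their sums overlapped.

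NDUFS7 encodes the core subunit that holds the last iron-sulfur cluster before coenzyme Q (chromosome 19, 1383907 to 1395584, GRCh38.p14). It was measured at 40.5, 25.7 and 37.5 CPM in the controls, from 42, 22 and 33 reads, and at 52.7, 68.6 and 105 CPM with miR-148a-3p, from 80, 58 and 64 reads. Every miR-148a-3p library was above every control, with replicate 3 the highest. Its log2 ratio was 1.08 (SE 0.30, edgeR adjusted p = 0.322, the smallest of any member). Over the alternatives tried it was 0.79 to 1.31, with adjusted p from 0.0898 without control replicate 1 to 0.998 without miR-148a-3p replicate 3, so it passed under none.

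NDUFS3, a core subunit of the arm that reaches into the matrix, is named because its groups did not overlap, after its values were seen. It was at 86.7, 102 and 104 CPM and at 106, 127 and 119 CPM, a fitted log2 ratio of 0.26 (SE 0.22). NDUFV1, which binds the flavin and NADH, was at 71.3 ± 6.37 and 83.7 ± 12.6 CPM, and NDUFS1, the largest core subunit, at 92.5 ± 10.3 and 82.1 ± 6.99 CPM, the 1 core subunit with a lower fitted value. Both overlapped, and both were chosen for mention after their values were seen.

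Among the accessory subunits of complex I, NDUFA6, a small protein of the LYR family, was at 95.4, 153 and 127 CPM in the controls and 192, 162 and 184 CPM with miR-148a-3p. The groups did not overlap, with a fitted log2 ratio of 0.53 (SE 0.21, edgeR adjusted p = 0.640). NDUFA10, an accessory subunit with a nucleoside kinase fold, was at 105, 119 and 94.4 CPM and at 78.4, 69.8 and 79.0 CPM. It was lower in 3 of 3 miR-148a-3p libraries than in any control, with a fitted log2 ratio of -0.48 (SE 0.23, edgeR adjusted p = 0.725). NDUFA5, the lower one next in rank, overlapped, at 137 ± 32.7 and 108 ± 18.7 CPM with a fitted log2 ratio of -0.33 (SE 0.23). The most abundant subunits of complex I, NDUFB9 and NDUFS5, were at 474 ± 30.1 and 529 ± 19.1 CPM and at 310 ± 32.4 and 279 ± 18.4 CPM, with log2 ratios of 0.16 and -0.15. NDUFC1, a small membrane subunit picked after its values were seen, was at 89.6, 166 and 119 CPM and at 131, 200 and 240 CPM, and the groups overlapped (log2 ratio 0.59, SE 0.24, edgeR adjusted p = 0.649).

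**Figure D4:**
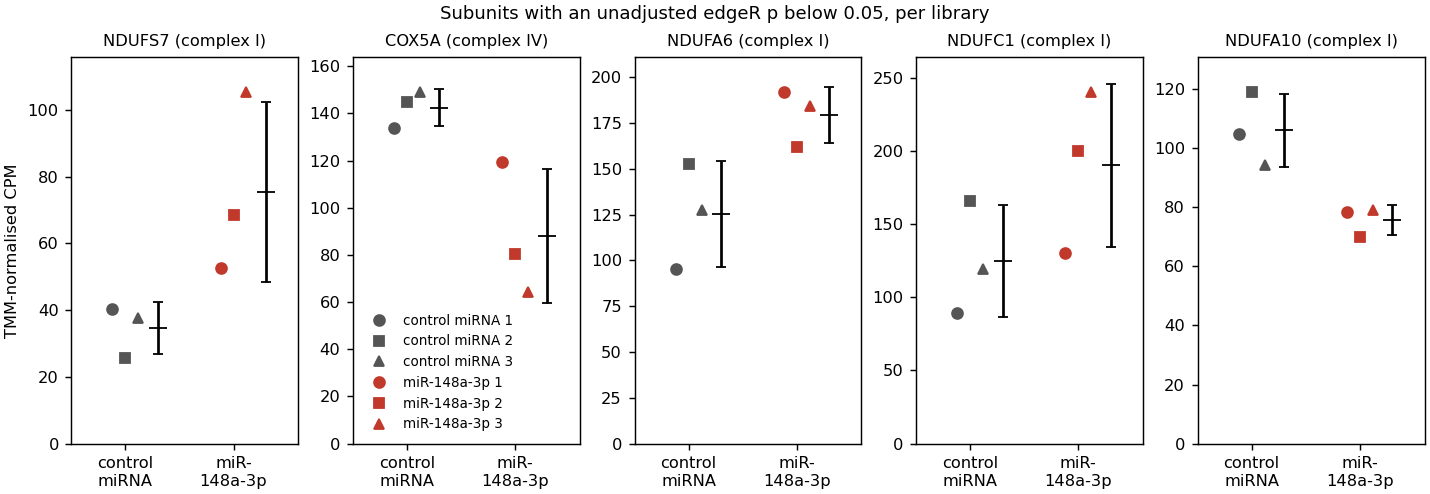
TMM-normalised CPM of the 5 subunits with an unadjusted edgeR p below 0.05 in each library (points), with the mean and SD of 3 libraries per group (bars). NDUFS7 and NDUFA6 were higher and COX5A and NDUFA10 lower in every miR-148a-3p library than in any control, while NDUFC1 overlapped, and none passed after adjustment over all genes.

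Complex II, the succinate dehydrogenase of the citric acid cycle, is encoded by the nucleus alone and was the least counted complex. The flavoprotein SDHA was at 62.6, 56.0 and 36.4 CPM in the controls and 61.3, 49.7 and 59.3 CPM with miR-148a-3p. The iron-sulfur subunit SDHB was at 44.3, 50.2 and 68.3 CPM and at 47.5, 55.6 and 42.8 CPM. The membrane anchor SDHD was at 18.3, 54.8 and 20.5 CPM and at 38.2, 36.7 and 37.9 CPM. All overlapped, and SDHD varied more between the controls than between the groups. Their log2 ratios were 0.13 (SE 0.28), -0.15 (SE 0.28) and 0.28 (SE 0.37), and that of SDHD ran from 0.00031 without control replicate 1 to 0.95 without control replicate 2. The other anchor, SDHC, had 6, 3 and 6 reads in the controls and 3, 5 and 0 with miR-148a-3p, too few to test. A difference in SDHC was not detectable at this depth.

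In complex III, the summed level was 2514, 2581 and 2525 CPM in the controls and 2567, 2154 and 2488 CPM with miR-148a-3p, with replicate 2 the low one. UQCRB was low in the same library, at 749 CPM, beside group means of 990 ± 58.6 and 936 ± 168 CPM (SD, n = 3). The subunits that carry electrons both had lower fitted values. Cytochrome c1, CYC1, was at 101, 155 and 177 CPM and at 107, 121 and 125 CPM, a fitted log2 ratio of -0.30 (SE 0.22, edgeR adjusted p = 0.822). The Rieske iron-sulfur protein, UQCRFS1, was at 12.5, 43.2 and 48.9 CPM and at 29.7, 26.0 and 14.8 CPM, a fitted log2 ratio of -0.49 (SE 0.41, edgeR adjusted p = 0.860). In both genes control replicate 1 was the lowest library and the other 2 controls were above all miR-148a-3p libraries. Without control replicate 1 the log2 ratios were -0.51 for CYC1 and -0.91 for UQCRFS1, and without control replicate 3 they were -0.12 and -0.16. UQCRH was at 357 ± 10.0 and 357 ± 34.3 CPM, and UQCR10 and the core protein UQCRC2 had log2 ratios of 0.11 (SE 0.21) and 0.031 (SE 0.23).

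In complex IV, the summed level was 2750, 3466 and 3524 CPM in the controls and 3567, 3140 and 3220 CPM with miR-148a-3p, and control replicate 1 was the lowest. COX5A, a subunit on the matrix side, was at 134, 145 and 149 CPM in the controls and 119, 80.5 and 64.2 CPM with miR-148a-3p. All 3 miR-148a-3p libraries were below all 3 controls, with a fitted log2 ratio of -0.66 (SE 0.23, edgeR adjusted p = 0.538) that ran from -0.97 to -0.49 over the alternatives, with adjusted p from 0.221 to 0.998. COX7B, a small membrane subunit, was at 152, 135 and 168 CPM and at 114, 134 and 105 CPM, a fitted log2 ratio of -0.37 (SE 0.21). The gap between its groups was under 2 CPM.

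COX6A1, the liver-type and ubiquitous form of subunit 6A, had the lowest fitted value of the tested members with all 6 libraries, -0.71 (SE 0.36, edgeR adjusted p = 0.726). It ran from -1.16 without miR-148a-3p replicate 2 to -0.40 without miR-148a-3p replicate 3, where it was no longer the lowest. It was at 34.7, 68.8 and 63.7 CPM in the controls and 32.3, 53.2 and 13.2 CPM with miR-148a-3p, and the groups overlapped. Its value in miR-148a-3p replicate 3 rested on 8 reads. COX8A, a small subunit at the membrane, went the other way, at 301, 480 and 463 CPM and at 581, 461 and 571 CPM, with a fitted log2 ratio of 0.38 (SE 0.19, edgeR adjusted p = 0.726). COX4I1 was at 815, 814 and 829 CPM and at 974, 874 and 933 CPM. Its groups did not overlap, with a fitted log2 ratio of 0.18 (SE 0.16, edgeR adjusted p = 0.881). COX7A2, COX7A2L, COX6B1 and NDUFA4 overlapped, with log2 ratios of -0.063, -0.089, 0.13 and 0.083.

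In complex V, the summed level was 4758, 5481 and 5387 CPM in the controls and 5665, 5328 and 5658 CPM with miR-148a-3p. The c ring genes together were at 1196, 1513 and 1514 CPM and at 1551, 1569 and 1520 CPM. These sums did not overlap, but the gap between control replicate 3 and miR-148a-3p replicate 3 was under 6 CPM, and control replicate 1 stood below the rest. ATP5MC2 was at 501, 634 and 715 CPM and at 834, 765 and 716 CPM, a fitted log2 ratio of 0.33 (SE 0.17, edgeR adjusted p = 0.726), again with a gap of under 2 CPM. ATP5MC1 was at 337 ± 42.8 and 348 ± 14.5 CPM and ATP5MC3 at 454 ± 54.8 and 426 ± 35.3 CPM, both with overlap.

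The 4 tested subunits of the peripheral stalk, which holds the head still, and the 5 tested small membrane subunits all had higher fitted values, with medians of 0.15 and 0.16, and none passed the test. Not all stayed above 0 with 1 library left out: ATP5PB was at -0.16 without control replicate 1, and without miR-148a-3p replicate 1 ATP5MK was at -0.093 and ATP5MJ at -0.058. Of the small membrane subunits, ATP5ME was at 247, 210 and 197 CPM and at 262, 238 and 288 CPM, a fitted log2 ratio of 0.27 (SE 0.19). ATP5MG was at 627 ± 73.2 and 701 ± 66.2 CPM. In the F1 head, which makes the ATP, 3 of 5 subunits had a higher fitted value. The alpha subunit ATP5F1A was at 276, 264 and 282 CPM and at 283, 305 and 296 CPM, and the catalytic beta subunit ATP5F1B, overlapping, at 332 ± 8.37 and 300 ± 33.5 CPM. Their log2 ratios were 0.10 (SE 0.18) and -0.14 (SE 0.18), and both were chosen for mention after their values were seen. The epsilon subunit ATP5F1E was at 483 ± 41.8 and 441 ± 44.6 CPM. ATP5IF1, which blocks the synthase from running backwards and splitting ATP, was at 187, 271 and 332 CPM and at 216, 246 and 245 CPM. The miR-148a-3p values lay inside the range of the controls, and its log2 ratio was -0.16 (SE 0.20).

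**Figure D5:**
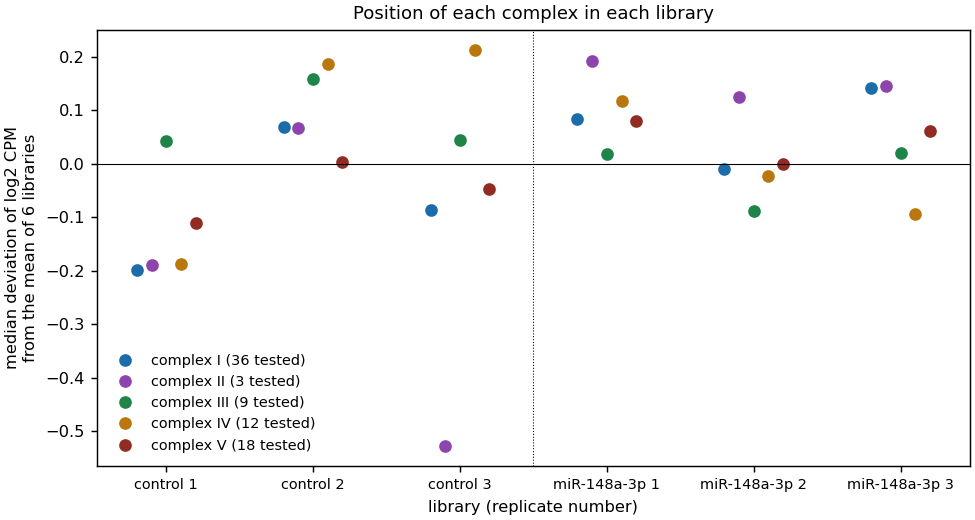
Median over the tested members of each complex of the deviation of log2 CPM from the gene's mean over the 6 libraries, for each library. In control replicate 1 the medians of complexes I, II, IV and V were below 0, at -0.20, -0.19, -0.19 and -0.11, and complex II, with 3 tested genes, was at -0.53 in control replicate 3.

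The members' position also varied between libraries of 1 group. For all 78 tested members the median deviation of log2 CPM from the mean of the 6 libraries was -0.16, 0.063 and -0.038 in the controls and 0.086, -0.021 and 0.051 with miR-148a-3p. Complex IV stood at -0.19, 0.19 and 0.21 in the controls and at 0.12, -0.023 and -0.093 with miR-148a-3p. Values without control replicate 1 are given above, and its part in the results was not tested.

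Genes that build or feed the chain were read from lists chosen with earlier results of these data known. None of their members passed the threshold in either direction. Of the complex I assembly factors, 6 of 13 tested had a higher fitted value (median -0.023), among them NDUFAF8 at 0.29 (SE 0.24), while ACAD9 was at -0.50 (SE 0.41). Of the assembly factors of complexes II, III and V, 8 of 10 were higher (median 0.13). UQCC1, needed to make cytochrome b, was at 0.48 (SE 0.35) and LYRM7, the chaperone of the Rieske protein, at 0.28 (SE 0.23).

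Of the complex IV assembly factors, 11 of 26 were higher (median -0.036). CMC2 was at 53.9, 49.0 and 50.1 CPM in the controls and 83.0, 81.6 and 80.7 CPM with miR-148a-3p, a fitted log2 ratio of 0.68 (SE 0.25, edgeR adjusted p = 0.579). Its groups did not overlap, and it did not pass the threshold. COA4 was at 0.63 (SE 0.33), with overlap.

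Of a list of electron carriers, coenzyme Q genes and NDUFAB1, 9 of 15 tested were higher (median 0.044). NDUFAB1, the mitochondrial acyl carrier protein, is also a subunit of complex I. Its symbol did not match the member rule, so it was counted only here, at 0.016 (SE 0.19). COQ10B, a protein that binds coenzyme Q, was at 23.1, 30.3 and 38.7 CPM in the controls and 19.1, 8.28 and 4.94 CPM with miR-148a-3p, a fitted log2 ratio of -1.34 (SE 0.45, edgeR adjusted p = 0.504). All 3 miR-148a-3p libraries were below the controls. In miR-148a-3p replicate 3, 8 reads gave COX6A1 13.2 CPM, so the 4.94 CPM of COQ10B there rested on fewer reads. CYCS, cytochrome c itself, was at 192, 202 and 181 CPM and at 196, 283 and 254 CPM, a fitted log2 ratio of 0.34 (SE 0.19, edgeR adjusted p = 0.746) with overlap. ETFA, which passes electrons from fatty acid oxidation, was at 0.37 (SE 0.20).

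Of the citric acid cycle and pyruvate dehydrogenase genes, 7 of 18 were higher (median -0.11). DLD, the shared E3 subunit of the pyruvate and oxoglutarate dehydrogenases, was at 93.4, 89.8 and 108 CPM and at 80.4, 59.2 and 60.9 CPM, without overlap (log2 ratio -0.52, SE 0.24, edgeR adjusted p = 0.725). SUCLG1, of succinyl-CoA ligase, was at 121 ± 6.14 and 183 ± 84.6 CPM, with 280 CPM in miR-148a-3p replicate 3 alone. Of the regulators of respiratory chain transcription, 9 of 12 were higher (median 0.12). CREB1 was at 63.6, 86.3 and 64.8 CPM and at 50.1, 47.3 and 39.5 CPM, a fitted log2 ratio of -0.63 (SE 0.26, edgeR adjusted p = 0.681). The coactivator PPARGC1B was at 8.17 ± 4.12 and 16.3 ± 3.07 CPM, a fitted log2 ratio of 0.95 (SE 0.55, edgeR adjusted p = 0.753). Neither gene's groups overlapped.

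Counting by symbol limited some values. RefSeq names 205 pseudogenes after 49 of the members, 18 of them after COX6C, and 16 members overlap the span of another gene that had counts. Reads of a subunit that were placed on such a copy are missing from its value. Adding the listed pseudogene and readthrough counts to their members left 0 of 78 called and 49 with a higher fitted value.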

How the data were processed

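Poly(A) 3' end mRNA libraries were made from 500 ng of total RNA, per the labels' protocols. For each of the 6 libraries the authors deposited raw counts by gene symbol. A gene missing from a library's list was taken as 0. The submitters' processing notes name cutadapt, STAR, Bowtie2 and GRCh38. How reads were counted, with which annotation and whether by strand, is not given in the sources used here. A small RNA library of wild-type cells was not used here.

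The model was edgeR's quasi-likelihood F test (edgeR 4.0.16, R 4.3.3), with the group as its term, after TMM scaling and filterByExpr. Benjamini-Hochberg adjustment covered the 8921 genes tested, with 0.05 as the threshold. The script was tested on simulated counts. Total counts of 630142 to 1564125 per library limit the precision for low genes. Replicates varied more than sampling noise (chi-square over its degrees of freedom 2.52 to 5.30), so none was counted as 1 library deposited again; repeat libraries of 1 culture could vary as much. With 3 against 3 libraries, an exact permutation test of 1 value cannot go below a two-sided p of 0.1, so none was used. Alternatives were DESeq2's and upper quartile size factors, DESeq2 1.42.0, limma-voom (limma 3.58.1), no filter, at least 10 CPM in 3 libraries, the replicate number as a block, added pseudogene counts, and leaving out each library.

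The members and gene lists were chosen with earlier results of these data known. Named members were all past the threshold, the 2 with the smallest p in each direction and the 2 most abundant in each complex, the SDH subunits, isoform families and ATP5IF1, and in each list the 2 with the smallest p and CYCS; others are said to be chosen after their values were seen. Gene coordinates, the microRNA and promoters are from RefSeq (GRCh38.p14). Transcripts and 3' untranslated regions were not used here. The values of 1 member and of 1 marker gene are not reported here by name; counts, sums and medians include them.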

Additional observations from a re-analysis of the deposited data

How the results depend on the processing

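Under every alternative tried, 0 of the tested members passed the threshold. Over all genes, edgeR called 1 gene, 0 higher and 1 lower. DESeq2 called 2 genes (2 lower), limma-voom 3 (3 lower), and edgeR without the filter 18 (7 higher, 11 lower). Leaving out 1 library gave 1 to 26 genes, 0 to 4 higher and 1 to 22 lower, the most without control replicate 1. The causes were not tested. Whether the replicate numbers pair the libraries was not tested. Same-numbered libraries correlated at 0.133, 0.0930 and -0.00185 in their deviations over all genes. Differently numbered libraries of the 2 groups correlated at -0.133 to 0.0274. With the replicate block 3 genes were called (3 lower), 8 members had an unadjusted p below 0.05, and UQCRH was at -1.94e-04. No member was called with the block either.

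With 1 library left out, members with an unadjusted p below 0.05 numbered 2 (without miR-148a-3p replicate 3) to 10 (without control replicate 3), and 3 without miR-148a-3p replicate 1. The median of complex V ranged from 0.064 (without control replicate 1) to 0.16, and that of complex III from -0.13 to 0.024 (without miR-148a-3p replicate 2). The complex IV median was 0.017 without control replicate 2 and 0.017 without control replicate 3. That of complex II was -0.015 without the filter, where UQCRH was at -0.0032. Small named log2 ratios changed sign when 1 library was left out. The ranges were -0.28 to 0.052 for SDHB, -0.058 to 0.30 for SDHA, -0.015 to 0.24 for UQCR10, -0.21 to 0.22 for UQCRC2, -0.19 to 0.058 for UQCRB and -0.080 to 0.052 for UQCRH. They were -0.36 to 0.046 for ATP5IF1, -0.061 to 0.38 for COX6B1, -0.18 to 0.054 for COX7A2, -0.32 to 0.094 for COX7A2L, -0.022 to 0.21 for NDUFA4 and -0.025 to 0.15 for ATP5MC1. The depth limits what can be said of SDHC and of the rare isoforms. With a median SE of 0.21, changes of the size of the complex medians were not detectable for single members. The planned description of seed matches was not run.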
